A study of Homo sapiens with 14 samples.

Results

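IFRD1 and IFRD2 are paralogous human genes, and their transcript levels were followed across 14 RNA sequencing libraries of 293 Flip-In T-REx cells. These derive from human embryonic kidney and accept a transgene at a single genomic site. IFRD1 was chosen by its level in these same libraries, and IFRD2 entered as its paralogue. All RefSeq entries of both genes were taken, which gave 2 genes of 22410 and 5 entries of 46830 in each library. IFRD1 had 4 entries and IFRD2 had 1, and each gene was represented by its entry with the highest mean level. Because IFRD1 was picked for its pattern, its levels and changes are given as a description, with no p-value and no call, and the share of all genes called stands beside them only as the background of each comparison. IFRD2 was not picked for its values and was tested.

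The libraries fell into 7 groups of 2, and all groups shared the host line. SA1Q+gRNA and SA1Q were cells with a SNAP-ADAR1Q transgene with and without a guide RNA, and SA1+gRNA were cells with SNAP-ADAR1 and a guide. SA2Q+gRNA, SA2Q and SA2+gRNA were the matching groups with SNAP-ADAR2Q or SNAP-ADAR2. The ctrl cells carried an empty vector. A SNAP-ADAR joins the deaminase domain of an adenosine deaminase acting on RNA to a SNAP tag, which bonds covalently to a modified guide RNA. The letter Q marks a glutamine that replaces a glutamate in the deaminase, which is known to make the enzyme more active. The sources used here do not state the guide's target, any induction of the transgene, or whether each line was a single clone or a pool. The labels hold no SA1 or SA2 group without a guide and no ctrl group with a guide, so the transgene, the Q change and the cell line itself cannot be told apart in the comparisons of SA1Q or SA2Q with ctrl. The design text speaks of independent experiments but does not say whether the 2 libraries of a group came from separate cultures, and the p-values measure the spread between these libraries, which may be technical.

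IFRD1, also called TIS7 or PC4, is a nuclear co-regulator of transcription that binds SIN3 and histone deacetylase complexes and is induced by phorbol ester, growth factors and stress. Its messenger RNA carries an upstream open reading frame, a short coding stretch before the protein's own start codon, which is known to hold down translation and to speed decay of the transcript until the initiation factor eIF2 is phosphorylated. IFRD2, also called SKMc15, is known from rabbit reticulocytes to bind ribosomes that are not translating.

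On hg19 the IFRD1 entries lie on the plus strand of chromosome 7. NM_001550, which represents the gene, spans 112090483 to 112117258 with 3301 nucleotides of transcript. NM_001007245 and NM_001197080 both span 112063199 to 112117258 with 3510 and 3235 nucleotides, and NM_001197079 spans 112092113 to 112117258 with 3400 nucleotides. The IFRD2 entry NM_006764 lies on the minus strand of chromosome 3 from 50325163 to 50330026, with 2109 nucleotides. In GENCODE v29 coding sequences, NM_001550 encodes 451 residues and NM_006764 encodes 506, and 229 of 436 aligned residues (52.5%) were identical. Both transcripts have 12 exons, and 6 of these are equal in size between the paralogues.

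The leaders, the stretches of transcript before the start codon, differ between the genes. The NM_001550 leader has 261 nucleotides and a single upstream ATG, which opens a reading frame of 52 codons that ends 43 nucleotides before the start codon. The NM_006764 leader of IFRD2 has 129 nucleotides and 2 upstream ATGs, and its longest upstream frame has 28 codons and ends 5 nucleotides before the start codon. NM_001007245 encodes the same 451 residues from a 470 nucleotide leader with 4 upstream ATGs and no upstream frame over 13 codons. NM_001197080 and NM_001197079 lack the exon with that start codon and encode 401 residues.

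The DNA just upstream of NM_001550 is shown because it holds the only cyclic AMP response element that was found in the promoter windows of the pair, and because CREB and ATF family factors bind this element. The capitals mark the element, TGACGTCA, which reads the same on both strands. The sequence is from RefSeq, assembly GRCh38.p14, plus strand, chr7:112450210-112450427, and the element lies at 112450408 to 112450415.

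IFRD1 upstream: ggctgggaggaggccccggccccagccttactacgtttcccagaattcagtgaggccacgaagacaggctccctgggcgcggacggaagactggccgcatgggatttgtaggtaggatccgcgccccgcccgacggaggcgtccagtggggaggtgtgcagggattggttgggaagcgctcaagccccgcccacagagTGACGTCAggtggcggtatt

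The element ended 45 bases before the RefSeq start site at 112450460. It was present in 649 of 35116 promoter windows (1.85%), where a window runs from 250 bases before to 50 bases after a start site. IFRD1 had 4 such windows, and overlapping ones at the start sites 112450460 and 112450508 held this single copy. The motif TGATGNAA, searched on both strands as a form of the element bound by ATF4 with CEBP partners, was found in 3.62% of all windows and in the IFRD1 window at 112452058, from 19 to 26 bases past the start site. Of the motifs searched on both strands (TGACGTCA, its part TGACG, TGATGNAA and the TATA box TATAAA), the IFRD2 window at 50292429 held none. A match describes letters in a window and does not show binding.

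Library totals ran from 43.0 to 130.1 M fragments. ADAR was at 1085 to 1603 CPM (counts scaled to the library total in M, after TMM scaling) in the 6 libraries of SA1 and SA1Q cells and 297 to 340.1 CPM in the other 8, and ADARB1 was at 939 to 1163 CPM in the 6 libraries of SA2 and SA2Q cells and 25.5 to 37.2 CPM in the other 8, so both followed the labels (these counts do not separate transgene from endogenous transcript). SA1Q+gRNA replicate 1 and ctrl replicate 1 stood apart on the first principal component (24.7% of variance), at −43.9 and −39.7, against 0.3 to 13.7 in the other 12, and their differences from the other replicate went with transcript length (Spearman's rho across genes −0.38 and −0.37, against −0.03 to 0.19 in the other groups). SA1+gRNA replicate 2 had the highest total and held only even counts. Of markers of the cell line, VIM (958 to 1290 CPM), KRT8, KRT18, NEFL and INA were at or above 49.7 CPM in every library, and NEFM was at 0.815 to 1.78 CPM. Of 11 fibroblast, blood and liver markers, DCN was at 0 in 3 libraries, LUM in 1 and CD3E in 6, and the 11 summed to 16.9 to 21 CPM in the 4 SA1Q and SA1Q+gRNA libraries, against 22.3 to 29.9 CPM in the other 10, mostly CD68 (10.7 to 21.8 CPM) and COL1A1 (4.93 to 8.42 CPM).

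IFRD1 transcript was at about double the ctrl level in the cells with SNAP-ADAR1Q, with or without guide, and was moderately above ctrl in the cells with SNAP-ADAR2Q. NM_001550 was at 148 and 168 FPM (fragments of an entry scaled by the authors to the library total in M) in SA1Q+gRNA and at 171 and 167 FPM in SA1Q. In SA1+gRNA it was at 94.9 and 85.7 FPM. These 4 libraries with the Q enzyme lay above both libraries of cells with the unmodified ADAR1 fusion.

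In SA2Q+gRNA, NM_001550 was at 110.1 and 107 FPM, and in SA2Q it was at 100.0 and 102 FPM. In SA2+gRNA it was at 80.6 and 79.6 FPM, and in ctrl it was at 86.2 and 78.1 FPM. The 4 libraries of the SA1Q line thus spanned 148 to 171 FPM. They did not overlap the other 10, which spanned 78.1 to 110.1 FPM. IFRD1 was picked for its level in these libraries, and the share of all genes that separate them likewise was not counted. The fragments behind these FPM values numbered 3789 to 11154 per library, so counting error was small beside the gap between the SA1Q line and the other 10. This does not hold within every group, as in SA2+gRNA at 80.6 and 79.6 FPM.

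From high to low the IFRD1 group means were 169 ± 2.92 FPM in SA1Q, 158 ± 14.4 in SA1Q+gRNA, 108 ± 2.32 in SA2Q+gRNA, 101 ± 1.40 in SA2Q, 90.3 ± 6.53 in SA1+gRNA and 80.1 ± 0.70 in SA2+gRNA, against 82.2 ± 5.71 in ctrl (mean ± SD, n = 2 each). SA1Q+gRNA and SA1Q overlapped, as did SA1+gRNA and ctrl, and SA2+gRNA lay within the range of ctrl. The other neighbours in this order did not overlap, which says little with n = 2 each. The order came from these same means, and the share of all genes without such overlap was not counted. In these bulk libraries more IFRD1 RNA per cell and more cells with IFRD1 RNA cannot be told apart.

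IFRD2 showed no such order. It was at 119 and 94.3 FPM in SA1Q+gRNA, 89.9 and 96.8 FPM in SA1Q, and 87.7 and 101 FPM in SA1+gRNA. It was at 95.9 and 99.9 FPM in SA2Q+gRNA, 97.0 and 94.4 FPM in SA2Q, 87.5 and 102 FPM in SA2+gRNA, and 120.0 and 94.1 FPM in ctrl. Its highest values were in SA1Q+gRNA replicate 1 and ctrl replicate 1, the libraries that stood apart, and the other 12 lay between 87.5 and 102 FPM on 4114 to 13202 fragments. Whether that library difference accounts for the IFRD2 values was not tested.

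**Figure D1:**
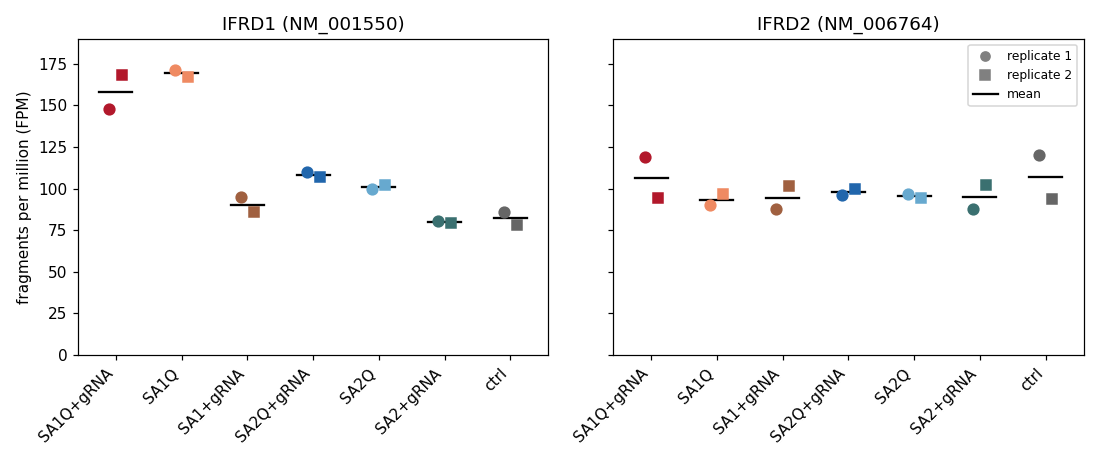
Level of IFRD1 (left, NM_001550) and IFRD2 (right, NM_006764) in FPM in each of 14 libraries, with circles for replicate 1, squares for replicate 2 and a line at the mean of each group. The 4 IFRD1 points of SA1Q+gRNA and SA1Q lie at 148 to 171 FPM, above the other 10 at 78.1 to 110.1 FPM. IFRD1 was picked for its level in these libraries. The 2 high IFRD2 points, 119 and 120.0 FPM, belong to SA1Q+gRNA replicate 1 and ctrl replicate 1.

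Per transcript length (FPKM, the FPM value per kilobase of transcript), the order of the paralogues depended on the line. IFRD1 was at 1.22 and 1.10 times the IFRD2 level in SA1Q and at 0.459 and 0.531 times in ctrl. The ratio averaged 0.966 ± 0.24 in SA1Q+gRNA, 0.616 ± 0.11 in SA1+gRNA, 0.708 ± 0.035 in SA2Q+gRNA, 0.674 ± 0.022 in SA2Q and 0.543 ± 0.064 in SA2+gRNA (SD, n = 2 each). IFRD1 exceeded IFRD2 in both SA1Q libraries and in SA1Q+gRNA replicate 2, at 1.14 times. It lay below IFRD2 in the other 11, among them SA1Q+gRNA replicate 1 at 0.793 times. These ratios rest on entry lengths of 3301 nucleotides for IFRD1 and 2109 for IFRD2. In GENCODE the model of NM_001550 has 2290 nucleotides, and a shorter length would raise every ratio. Which paralogue exceeded the other thus holds for these entry lengths only.

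**Figure D2:**
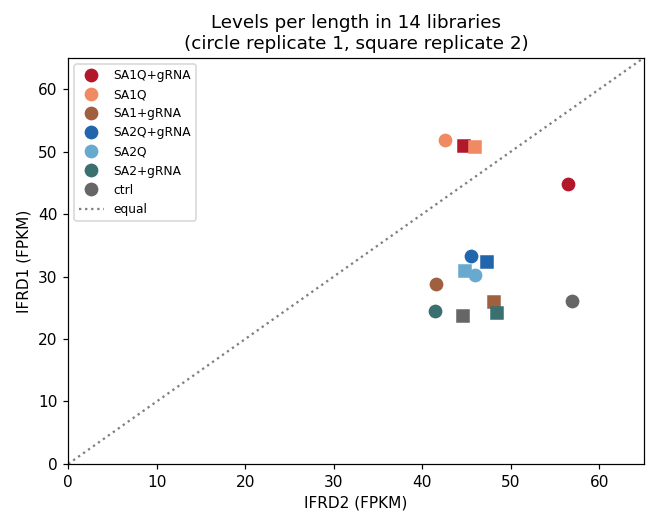
IFRD1 level against IFRD2 level per transcript length (FPKM on both axes) in 14 libraries, with colour for the group, circles for replicate 1, squares for replicate 2 and a dotted line of equal levels. The libraries spread from 23.7 to 51.9 FPKM for IFRD1, and 12 of them lie within 41.5 to 48.5 FPKM for IFRD2, the exceptions being SA1Q+gRNA replicate 1 at 56.4 FPKM and ctrl replicate 1 at 56.9 FPKM.

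Changes were estimated with edgeR's quasi-likelihood fit over all 14 libraries and 16418 genes, and a gene was called where its Benjamini-Hochberg adjusted p was under 0.05. IFRD1 in SA1Q exceeded ctrl by 1.03 ± 0.08 on the log2 scale (± SE), a fold of 2.04. In this comparison 2.8% of the genes tested were called, and 117 genes (0.713%) had a higher change than IFRD1. Without SA1Q+gRNA replicate 1 and ctrl replicate 1 the change was 1.13. IFRD2 differed by −0.22 in SA1Q against ctrl, with a 95% interval of −0.52 to 0.09 and an adjusted p of 0.41 by edgeR's quasi-likelihood test. Without the libraries that stood apart the IFRD2 estimate was 0.00, and its interval in the full fit excludes a rise of the size seen for IFRD1.

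IFRD1 in SA2Q exceeded ctrl by 0.29 ± 0.08 (log2, ± SE), a fold of 1.22, in a comparison with 0.0853% of genes called. The value was 0.39 without SA1Q+gRNA replicate 1 and ctrl replicate 1. IFRD2 differed by −0.17 in SA2Q against ctrl, with a 95% interval of −0.47 to 0.13 and an adjusted p of 0.79 by edgeR. IFRD1 lay closer to ctrl in the cells with fusions that lack the Q change, both of which had a guide. IFRD1 differed by 0.14 ± 0.08 in SA1+gRNA against ctrl (0.0426% of genes called) and by −0.03 ± 0.08 in SA2+gRNA against ctrl (0.104% called). The second value turned to 0.07 without ctrl replicate 1. IFRD2 differed by −0.17 in both, with edgeR adjusted p of 0.68 and 0.75. These 4 comparisons share the ctrl libraries.

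The comparison of a Q enzyme with its unmodified fusion had a guide on both sides and did not use ctrl. The Q and unmodified fusions sat in different lines, so here too the Q change and the line cannot be told apart. ADAR was also lower in SA1Q+gRNA, at 1324 and 1134 CPM, than in SA1+gRNA, at 1426 and 1603 CPM, and the part of this difference in the IFRD1 values was not tested. IFRD1 in SA1Q+gRNA exceeded SA1+gRNA by 0.82 ± 0.08 (log2, ± SE), a fold of 1.76, where 0.962% of genes were called. IFRD1 in SA2Q+gRNA exceeded SA2+gRNA by 0.43 ± 0.08, a fold of 1.35, where 0.0122% of genes were called. The IFRD1 difference between SA1Q+gRNA and SA1+gRNA was larger by 0.38 ± 0.12 than that between SA2Q+gRNA and SA2+gRNA, a comparison that was chosen after seeing the data. In it edgeR called 0 of 16418 genes (0%), with 1542 genes at an unadjusted p under 0.05. IFRD2 differed by 0.19 between SA1Q+gRNA and SA1+gRNA and by 0.04 between SA2Q+gRNA and SA2+gRNA, with 95% intervals of −0.12 to 0.49 and −0.26 to 0.35 and edgeR adjusted p of 0.51 and 0.98. The first IFRD2 value turned to −0.04 without SA1Q+gRNA replicate 1.

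The lines with a Q enzyme also differed from each other. IFRD1 in the 4 libraries of the SA1Q line exceeded the 4 of the SA2Q line by 0.65 ± 0.06 (log2, ± SE), a fold of 1.57, where 2.75% of genes were called. IFRD2 differed by 0.05 between the lines, with a 95% interval of −0.17 to 0.26 and an edgeR adjusted p of 0.85. Over all 7 groups, 1.57% of genes were called for any difference, and IFRD2 had an edgeR adjusted p of 0.74.

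IFRD1 levels with and without the guide were close in both lines with a Q enzyme. IFRD1 differed by −0.07 ± 0.08 between SA1Q+gRNA and SA1Q, by 0.11 ± 0.08 between SA2Q+gRNA and SA2Q, and by 0.02 ± 0.06 over both lines (log2, ± SE). IFRD2 differed by 0.23, 0.04 and 0.14 in the same comparisons, with 95% intervals of −0.08 to 0.53, −0.26 to 0.35 and −0.08 to 0.35 and edgeR adjusted p of 0.49, 1 and 0.8. The largest of these IFRD2 values, in the SA1Q line, was 0.01 without the libraries that stood apart. The guide effect in the SA1Q line minus that in the SA2Q line was −0.18 ± 0.12 for IFRD1 and 0.19 ± 0.20 for IFRD2, the second with an edgeR adjusted p of 0.79. In these 4 comparisons edgeR, DESeq2 and limma each called 0 of all genes, and edgeR had 2005, 291, 929 and 930 genes at an unadjusted p under 0.05, where chance alone would give 821.

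**Figure D3:**
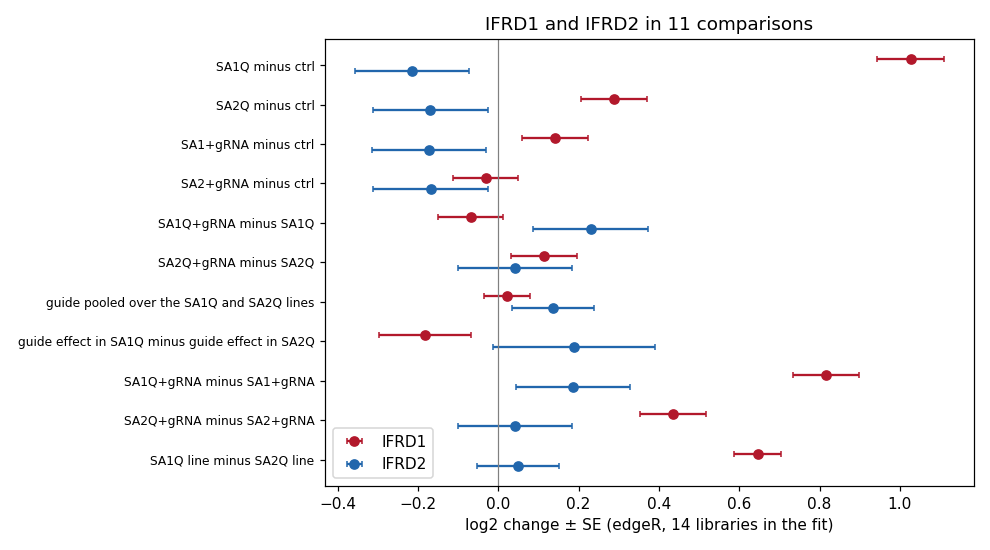
Change of IFRD1 (red) and IFRD2 (blue) in 11 comparisons on the log2 scale, as the edgeR estimate with a bar of 1 SE on each side. IFRD1 lies at 1.03, 0.82 and 0.65 in SA1Q minus ctrl, SA1Q+gRNA minus SA1+gRNA and SA1Q line minus SA2Q line, and IFRD2 lies between −0.22 and 0.23 throughout.

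The 4 IFRD1 entries moved together. As features of their own in a fit of 34050 entries, they exceeded ctrl in SA1Q by 1.02 to 1.07 (log2), SA1Q+gRNA exceeded SA1+gRNA by 0.77 to 0.82, and the SA1Q line exceeded the SA2Q line by 0.65 to 0.66. These entries share most of their fragments and are not independent. NM_001550 held only 7 to 48 fragments more per library than NM_001007245, and NM_001197080 held from 4 fewer to 17 more than NM_001197079. The counts therefore do not tell which start site or which leader, with or without the frame of 52 codons, the added IFRD1 transcripts had.

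What the counts do resolve is the exon with the start codon, which NM_001007245 has and NM_001197080 lacks. The excess of NM_001007245 over NM_001197080 fragments made up 19.11% and 17.61% of its fragments in SA1Q+gRNA, 12.92% and 17.05% in SA1Q, and 17.31% and 17.92% in ctrl. The share was 15.27% to 19.04% in the other 8 libraries. SA1Q replicate 1 was lowest, with a 95% Wilson interval of 12.26% to 13.6% that covers counting error only, and SA1Q replicate 2 lay within the range of the other libraries. The group means were 18.4% ± 1.06 in SA1Q+gRNA, 14.985% ± 2.92 in SA1Q and 17.6% ± 0.431 in ctrl (SD, n = 2 each), so the shares of SA1Q and ctrl differed by less than the spread between the SA1Q replicates.

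**Figure D4:**
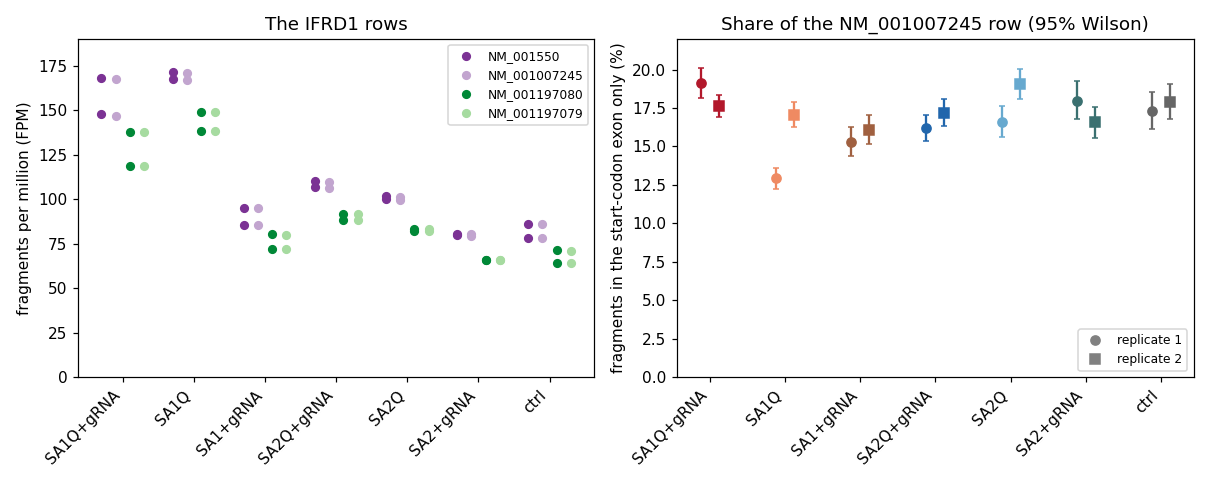
Left, the 4 IFRD1 entries in FPM in each library. Right, the excess of NM_001007245 over NM_001197080 fragments as a percentage of NM_001007245 fragments, with 95% Wilson intervals. The interval of SA1+gRNA replicate 2 was computed on its counts divided by 2. The entries follow each other at 2 heights, NM_001550 with NM_001007245 above NM_001197080 with NM_001197079, and the share lies between 12.92% and 19.11%, lowest in SA1Q replicate 1.

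The 3′ end of IFRD2 overlaps LSMEM2, on the opposite strand, by 383 bases, and the sources used here do not state whether counting used strand. LSMEM2 was at 14.1 to 19.4 FPM, and was also highest in SA1Q+gRNA replicate 1 (19.2) and ctrl replicate 1 (19.4). If strand was not used, fragments of either gene in the overlap may have been counted for the other. How many were was not tested. Of 8 genes within 500 kb of IFRD1, 5 were tested, and edgeR, DESeq2 and limma called 0 of them in SA1Q against ctrl, where edgeR had 2 at an unadjusted p under 0.05 and the median change was 0.11. The distance was chosen after seeing the data. LSMEM1, the nearest at 3649 bases, differed by 0.11 with an edgeR adjusted p of 0.78. Of 37 genes near IFRD2, 31 were tested. Their median change in SA1Q against ctrl was −0.26, beside −0.22 for IFRD2 itself and 0.00 over all genes tested. By edgeR 9 of them were at an unadjusted p under 0.05, and 2 were called lower, where 1.74% of all genes were called lower. They were GNAI2, a G protein subunit, at −0.40 (adjusted p = 0.04), and NAA80, which acetylates actin, at −0.67 (adjusted p = 0.041).

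The genes whose pattern was most like that of IFRD1, by Pearson's r of log2 CPM over 14 libraries among 13739 genes, were SMARCE1 (0.953), TLK2 (0.949), CRY1 (0.946), SERINC4 (0.944) and EIF4G2 (0.942). They changed much less than IFRD1, by 0.21 to 0.43 (log2) in SA1Q against ctrl. Over the 12 libraries other than SA1Q+gRNA replicate 1 and ctrl replicate 1 their r with IFRD1 was 0.94 to 0.975. The genes most like IFRD2 were PSMD3 (0.973), SCAMP3 (0.959), DDX49 (0.956), NPLOC4 (0.953) and PAXX (0.953), with r of 0.794 to 0.919 over the same 12 libraries. Libraries share depth and length effects, and IFRD1 and IFRD2 themselves had r = 0.018 over 14 libraries and −0.184 over 12.

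Lists of genes tied to IFRD1, to the control of its messenger RNA or to IFRD2 were counted against ctrl in the same way. The lists were chosen with earlier results of these data known. None of their genes called higher in SA1Q changed by as much as IFRD1. Since IFRD1 was picked for its level and only 0.713% of all genes had a higher change, this says little about the lists. Of 10 transcripts that, like IFRD1, carry upstream frames and are translated when eIF2 is phosphorylated, edgeR called 0 higher in SA1Q than in ctrl and 1 lower, against 1.07% and 1.74% of all genes. DESeq2 and limma gave the same counts, and 4 of the 10 were at an unadjusted p under 0.05. The lower gene was UCP2, which encodes a mitochondrial carrier, at −0.51 (edgeR adjusted p = 0.02). ATF4, the transcription factor at the head of this response, was at −0.25 (adjusted p = 0.17), and PPP1R15A, which helps to dephosphorylate eIF2, was at −0.38 (adjusted p = 0.18). The list's median change was −0.16, against 0.00 over all genes tested.

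The list of 27 targets of the ATF4 pathway was also chosen with earlier results of these data known. In it edgeR called 8 lower and 1 higher in SA1Q than in ctrl, DESeq2 12 and 1, and limma 9 and 1. By edgeR the median was −0.36, with 1.74% of all genes called lower and 1.07% higher. The lower ones included CHAC1, which degrades glutathione, at −1.43 (adjusted p = 0.0018), SLC7A11, a cystine transporter, at −0.90 (adjusted p = 0.0023), PHGDH, an enzyme of serine synthesis, at −0.53 (adjusted p = 0.018), and SLC7A5, an amino acid transporter, at −0.61 (adjusted p = 0.02). The higher one was CEBPG, a transcription factor that pairs with ATF4, at 0.29 (adjusted p = 0.047). In SA1Q+gRNA against SA1+gRNA, 9 of the 27 were called lower and 0 higher by edgeR (0.512% and 0.451% of all genes; DESeq2 had 12 and 0, limma 11 and 0), with SLC7A11 at −1.23 (adjusted p = 0.00029), PSAT1 at −0.60 and ASNS at −0.81 (both adjusted p = 0.0012), the last an enzyme that makes asparagine. Between the SA1Q and SA2Q lines 7 were lower and 1, CEBPG, higher (1.72% and 1.03% of all genes), and 14 were lower without SA1Q+gRNA replicate 1 and ctrl replicate 1, a fit in which 6.22% of all genes were called lower. In SA2Q+gRNA against SA2+gRNA, 23 of the 27 estimates were below 0, with a median of −0.21. There edgeR called 0, with 16 at an unadjusted p under 0.05, and limma 0. DESeq2 called 4 lower, beside 51 of all genes tested. In SA2Q against ctrl edgeR and limma called 0 of the 27, with 4 at an unadjusted p under 0.05. DESeq2 called 1 of the 27 higher and 1 lower, beside 52 and 39 of all genes tested. Against ctrl, 21 of the 27 estimates were above 0 in SA1+gRNA and likewise in SA2+gRNA, with medians of 0.11 and 0.12. By edgeR 1 was called higher in each, beside 5 and 11 of all genes tested.

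Nonsense-mediated decay is the surveillance pathway known to act on IFRD1 messenger RNA. Among 14 of its factors edgeR called 1 higher in SA1Q than in ctrl and 0 lower, against 1.07% and 1.74% of all genes. DESeq2 had 2 and 0, beside 487 and 577 of all genes tested, and limma 1 and 0, beside 219 and 330. By edgeR 3 of the 14 were at an unadjusted p under 0.05. The higher one was MAGOH, of the exon junction complex, at 0.36 (adjusted p = 0.043), and the central helicase UPF1 was at 0.05 (adjusted p = 0.82). Of 12 SIN3 and histone deacetylase partners of IFRD1, edgeR, DESeq2 and limma called 0 in SA1Q against ctrl, 2 being at an unadjusted p under 0.05, with HDAC2 at 0.20 (adjusted p = 0.13) and SIN3A at 0.05 (adjusted p = 0.75). Of 11 immediate early genes and other sequences induced by phorbol ester, as IFRD1 is, edgeR, DESeq2 and limma called 0 higher and 2 lower. The edgeR shares over all genes were the same 1.07% and 1.74%. By edgeR 7 of the 11 were at an unadjusted p under 0.05. All 11 estimates were below 0, with a median of −0.41. This shift appeared in the other comparisons with ctrl as well, with 11 of 11 below 0 in SA2Q (median −0.35) and in SA1+gRNA (median −0.23) and 9 of 11 in SA2+gRNA (median −0.25). As a shift of the list it was not seen in SA1Q+gRNA against SA1+gRNA, where 6 of 11 were below 0 and the median was −0.01. The called ones in SA1Q against ctrl were MYC, a growth regulator, at −0.58 (adjusted p = 0.016) and BTG2, an antiproliferative gene, at −0.37 (adjusted p = 0.034). MYC was also called lower by edgeR in SA1Q+gRNA against SA1+gRNA, at −0.485 (adjusted p = 0.048), where 0.512% of all genes were called lower.

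Among 10 factors that hold or rescue inactive ribosomes, the setting of IFRD2, 1 was higher and 1 lower in SA1Q than in ctrl by edgeR. They were ABCE1, which splits ribosomes, at 0.36 (adjusted p = 0.033), and the elongation factor EEF2, at −0.41 (adjusted p = 0.036). The median of the 10 was 0.03. In SA1Q against ctrl edgeR called 1.07% of all genes higher and 1.74% lower. Of 11 regulators of p53 and mTORC1, a pathway tied to IFRD1 in regenerating mouse tissue, edgeR called 0 in SA1Q against ctrl, with 3 at an unadjusted p under 0.05, while DESeq2 and limma each called 1 lower. Without SA1Q+gRNA replicate 1 and ctrl replicate 1, edgeR called 2 higher among the decay factors, 2 higher among the ribosome factors, and 1 higher and 1 lower among the p53 and mTORC1 regulators, while 3.43% of all genes were called higher and 3.89% lower. Of 6 markers of the cell line, INA was higher at 0.47 (adjusted p = 0.016) and KRT8 lower at −0.48 (adjusted p = 0.017), and of 7 tested markers of fibroblast, blood and liver cells COL1A1 was lower at −0.64 (adjusted p = 0.023). The part of these marker differences in the IFRD1 result was not tested.

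**Figure D5:**
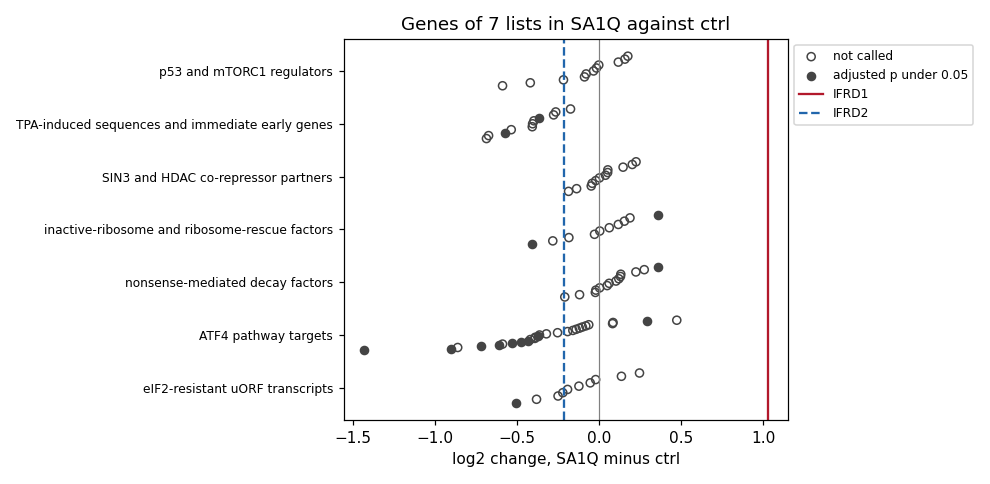
Change in SA1Q against ctrl (log2) of each tested gene in 7 lists, with filled points for genes called at an adjusted p under 0.05, a red line at IFRD1 (1.03) and a dashed blue line at IFRD2 (−0.22). No gene of the lists rises as far as IFRD1, which was picked for its level. Of the 9 filled points of the ATF4 targets, 8 lie below 0, from −1.43 to −0.38. The lowest, CHAC1, changes by more than IFRD1.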

How the data were processed

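Polyadenylated RNA was sequenced paired-end with a kit that keeps strand, per the labels' protocols. Trim Galore, STAR 2.4.2a and hg19 were used, per the submitters' processing notes, and the sources used here do not name the counting tool. Per the file headers, each of 14 files held a fragment count per RefSeq entry without normalization, an FPM and an FPKM value scaled by the authors. FPM equalled the count over the library total to within 5.5e-09.

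Of 45595 accessions, 44377 were named by a RefSeq table (GRCh38.p14, names only) and 569 by GENCODE, together 98.6%, and 649 were not named. The 887 unnamed entries held 0.79% to 0.82% of the counts and were left out, as were entries under 200 nucleotides. The genes analysed held 93.2% to 95.1% of the counts. The test on counts was that of edgeR 4.0.16 under R 4.3.3 (filterByExpr with a minimum count of 10 in at least 2 libraries, TMM scaling, quasi-likelihood test, two-sided, no covariate, Benjamini-Hochberg adjustment over the genes tested in each comparison), as the design foresaw for counts. Residual degrees of freedom numbered 7, and the common biological coefficient of variation came to 8.7%. Likeness used log2 CPM with a prior count of 2 among genes with a mean of at least 1 CPM. Alternatives were DESeq2 1.42.0, limma 3.58.1 on log2(FPKM + 0.1), other scaling, filters and features, a replicate block, a length offset and left-out libraries. Code was tested on simulated data. Both genes were named in every comparison. The 5 most alike genes, overlapping genes and up to 4 members of a list with the smallest p were eligible to be named, and SIN3A, UPF1, LSMEM1, GNAI2, NAA80 and, in SA1Q against ctrl, CEBPG were named after their values were seen. The members and lists were chosen with earlier results of these data known.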

Additional observations from a re-analysis of the deposited data

Results flagged for a closer look

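IFRD1 in the SA1Q line exceeded the SA2Q line by 0.65 on the log2 scale, and this difference between lines under the same Q change placed it here. The SA1Q line spanned 148 to 171 FPM and the SA2Q line 100.0 to 110.1 FPM, with 4 libraries each. The value was 0.62 to 0.67 over 17 alternatives. IFRD1 was picked with its level in these libraries known, so the difference is a description and no test of it is offered. Groups of 2 libraries are too small to test for outlying samples.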

How the results depend on the processing

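Over the alternatives to the 11 comparisons, 151 of 155 IFRD1 changes kept their sign, 3 turned and 1 rounded to 0.00, and 140 of 155 IFRD2 changes kept theirs, 13 turned and 2 rounded to 0.00. No alternative called IFRD2. In SA1Q against ctrl IFRD1 ranged from 0.94 to 1.13 under 13 alternatives, in SA1Q+gRNA against SA1+gRNA from 0.76 to 0.88 under 13, and between the SA1Q and SA2Q lines from 0.62 to 0.67 under 17. Without SA1Q+gRNA replicate 1 and ctrl replicate 1 together, IFRD1 was at 0.388 in SA2Q against ctrl and at 0.435 in SA2Q+gRNA against SA2+gRNA, and turned to 0.066 in SA2+gRNA against ctrl. IFRD2 then turned to 0.044, 0.043 and 0.045 in SA2Q, SA1+gRNA and SA2+gRNA against ctrl, to −0.036 for the difference of guide effects, to −0.038 in SA1Q+gRNA against SA1+gRNA and to −0.063 between the lines. IFRD1 in SA2Q+gRNA against SA2+gRNA was at 0.433 by DESeq2 and at 0.432 with the length offset. IFRD1 was picked on these libraries, so its values under the alternatives are a description. With limma the IFRD1 guide effect over both lines was −0.001. The cause was not tested.

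Leaving out 1 library at a time gave, for IFRD1, 0.197 to 0.388 in SA2Q against ctrl, −0.127 to 0.067 in SA2+gRNA against ctrl, 0.412 to 0.454 in SA2Q+gRNA against SA2+gRNA and −0.011 to 0.047 for the guide over both lines. For IFRD2 it gave −0.357 to 0.044 in SA2Q, −0.359 to 0.042 in SA1+gRNA and −0.358 to 0.045 in SA2+gRNA against ctrl, −0.036 to 0.375 for the difference of guide effects, −0.037 to 0.376 in SA1Q+gRNA against SA1+gRNA, −0.072 to 0.165 in SA2Q+gRNA against SA2+gRNA and −0.062 to 0.147 between the lines. A group left with 1 library was assumed to vary like the others.

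Replicate numbers did not pair the libraries in most groups: across 21 pairs of groups the replicate differences correlated at −0.14 to 0.44, and 2 exceeded 0.1. For IFRD2, replicate 1 minus replicate 2 was 0.40 (log2) in ctrl and 0.42 in SA1Q+gRNA, whose replicate 1 libraries stood apart. It was −0.24 to 0.04 in the other groups. With the replicate block IFRD1 was at 1.028 in SA1Q against ctrl and IFRD2 at −0.212, while the genes called numbered 304 with the block and 460 without. Counts of genes called moved more than the pair did, to 38 to 1218 of 460 in SA1Q against ctrl (39 and 38 without SA1Q replicate 1 and 2), 17 to 2082 of 158 in SA1Q+gRNA against SA1+gRNA, 85 to 1959 of 452 between the lines, and 0 to 2114 of 0 in SA1Q+gRNA against SA1Q, 2114 being without SA1Q+gRNA replicate 2. Against ctrl they were 2 to 569 of 14 in SA2Q, 4 to 382 of 7 in SA1+gRNA and 2 to 473 of 17 in SA2+gRNA, and 1 to 119 of 2 in SA2Q+gRNA against SA2+gRNA and 0 to 93 of 0 for the guide over both lines. Each SD comes from 2 libraries.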
